A study of Mus musculus with 4 samples.

Results

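The mitochondrial respiration and mitoribosome genes are the nuclear genes that encode the respiratory chain complexes, the ATP synthase and the proteins of the mitochondrial ribosome. They were taken as the 177 protein-coding nuclear genes whose symbols start with Nduf, Sdh, Uqcr, Cox plus a digit, Atp5, Mrpl or Mrps, in GENCODE M1 on mm9. A peak was assigned to a gene when it overlapped 1000 bp upstream to 500 bp downstream of any of its transcript starts. This gave 27 member peaks at 28 genes, among 4523 E2F1 peaks in all, of which 3989 overlapped such a window at some protein-coding gene. The remaining 3962 promoter peaks served for comparison.

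E2F1 occupancy was measured by ChIP-seq, which sequences the DNA that an E2F1 antibody recovers from fixed chromatin. The 4 samples were 2 biological replicates of mouse embryonic stem cells kept in serum (serum ESCs) and 2 of cells kept in 2i (2i ESCs). The 2i medium holds PD0325901, an inhibitor of MEK in the ERK pathway, and CHIR99021, an inhibitor of GSK3. The labels give no genotype change, strain or cell line for these samples, and both populations were adapted to their medium for a long period before fixation. Values are normalized counts, the reads in a peak after division by 1 size factor per sample. Serum replicate 1 was the shallowest, with 248878 reads in peaks and a median of 35 reads per peak, and 2i replicate 1 the deepest, with 710519 reads and a median of 111. Serum replicate 2 had 450420 reads in peaks and 2i replicate 2 had 395738. Across the members a peak held between 2 and 295 reads in a sample, and 3 members had fewer than 10 reads in at least 1 sample. The peak table holds no expression values, so the cell type was not checked against marker genes. In such bulk material, occupancy in fewer cells and weaker occupancy per cell cannot be told apart.

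Oxidative phosphorylation runs through complexes I to IV, which pass electrons from NADH and succinate to oxygen. Complexes I, III and IV pump protons, and complex V, the ATP synthase, uses the proton gradient to make ATP. Most subunits are encoded in the nucleus and imported, while a small set is encoded in mitochondrial DNA and made on the mitoribosome, whose proteins are again nuclear gene products. Nuclear genes of this kind are known targets of NRF1, of GABPA (an ETS family factor also called NRF2) and of YY1. E2F1 is best known for activating genes of the G1/S transition under the restraint of RB family proteins.

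The sequences at the member peaks were searched for short words of these factors, and stretches that carry a word are shown because the ETS and YY1 words were found at a larger share of members than of other promoter peaks. The search covered 200 bp on either side of each peak centre on both strands. The words were TTTCCCGC, TTTCGCGC, TTTGCCGC or TTTGGCGC for E2F, GCGCANGCG for NRF1, CCGGAAG for ETS factors, AANATGGCG for YY1 and GGGCGG for SP1. SP1 matches can overlap those of the other words, as at Ndufa13, and in no member did matches of different words other than SP1 share a base. A match describes the letters in the window and is not evidence of binding by the factor. The ETS word was found at 10 of 27 member peaks (37.0%) and at 538 of 3962 other promoter peaks (13.6%). The following are 31 bases around 1 ETS match in 9 of these peaks, from NCBIM37 (mm9), each written 5′ to 3′ on the strand that carries the word, with the word in capitals.
Mrpl40 (chr16:18877309-18877339, minus strand): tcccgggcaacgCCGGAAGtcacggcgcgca
Sdhaf2 (chr19:10600029-10600059, minus strand): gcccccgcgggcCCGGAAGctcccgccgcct
Cox4i1 (chr8:123192178-123192208, minus strand): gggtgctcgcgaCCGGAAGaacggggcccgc
Atp5d (chr10:79602121-79602151, minus strand): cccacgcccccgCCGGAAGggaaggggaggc
Sdhaf1 (chr7:31107369-31107399, plus strand): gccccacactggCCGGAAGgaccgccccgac
Mrps35 (chr6:146991247-146991277, minus strand): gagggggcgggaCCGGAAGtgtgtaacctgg
Mrpl33 (chr5:31916309-31916339, plus strand): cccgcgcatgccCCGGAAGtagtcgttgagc
Mrps26 (chr2:130389467-130389497, minus strand): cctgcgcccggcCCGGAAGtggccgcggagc
Cox6a1 (chr5:115798965-115798995, plus strand): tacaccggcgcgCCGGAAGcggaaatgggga

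Within 100 bp of the centre the ETS word was found at 11.1% of member peaks and 5.98% of other promoter peaks, so that most matches in the members lay away from the centre. The YY1 word was found at 5 member peaks (18.5%) and at 7.52% of other promoter peaks. All 5 of these peaks also carried it within 100 bp of the centre, so the share there was again 18.5% of members, against 4.09% of other promoter peaks. It is shown for 4 members, in the same way, because it was the word that lay nearest the centres.
Atp5h (chr11:115281468-115281498, plus strand): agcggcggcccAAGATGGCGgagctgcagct
Mrps7 (chr11:115465165-115465195, minus strand): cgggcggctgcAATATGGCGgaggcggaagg
Mrps24 (chr11:5607649-5607679, minus strand): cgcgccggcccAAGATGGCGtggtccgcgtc
Ndufv2 (chr17:66450790-66450820, plus strand): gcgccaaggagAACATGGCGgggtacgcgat

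The NRF1 word was found at 6 member peaks (22.2%) and 17.4% of other promoter peaks. Over whole peaks the order was the other way, at 18.5% of members and 21.3% of other promoter peaks. It is shown for the 4 strongest of the 6.
Atp5h (chr11:115281355-115281385, minus strand): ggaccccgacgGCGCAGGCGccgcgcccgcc
Atp5g3 (chr2:73749185-73749215, plus strand): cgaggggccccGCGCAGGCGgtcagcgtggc
Mrps6 (chr16:92058885-92058915, minus strand): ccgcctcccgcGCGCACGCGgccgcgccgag
Ndufa13 (chr8:72427067-72427097, plus strand): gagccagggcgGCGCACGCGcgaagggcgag

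An E2F word was found at 1 member peak (3.70%), that of Mrpl40, and at 198 other promoter peaks (5.0%).
Mrpl40 (chr16:18877273-18877303, plus strand): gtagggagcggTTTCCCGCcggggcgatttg

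The SP1 word was found at 26 members (96.3%) and at 93.9% of other promoter peaks. At least 1 of the E2F, NRF1, ETS and YY1 words was present at 18 members (66.7%) and at 37.7% of other promoter peaks, while 9 members had none of these 4. The member with the lowest p between serum and 2i ESCs, Ndufa4, was among those 9, and the 300 bases around its centre are given for that reason, with its single SP1 word in capitals as the reverse complement CCGCCC.
Ndufa4 and Phf14 (chr6:11857676-11857975, plus strand): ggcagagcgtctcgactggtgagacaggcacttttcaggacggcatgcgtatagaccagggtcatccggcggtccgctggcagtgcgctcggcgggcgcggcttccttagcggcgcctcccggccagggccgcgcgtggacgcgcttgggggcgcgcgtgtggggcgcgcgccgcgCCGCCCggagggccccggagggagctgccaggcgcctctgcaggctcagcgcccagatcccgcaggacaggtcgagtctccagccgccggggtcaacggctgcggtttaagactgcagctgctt

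**Figure D1:**
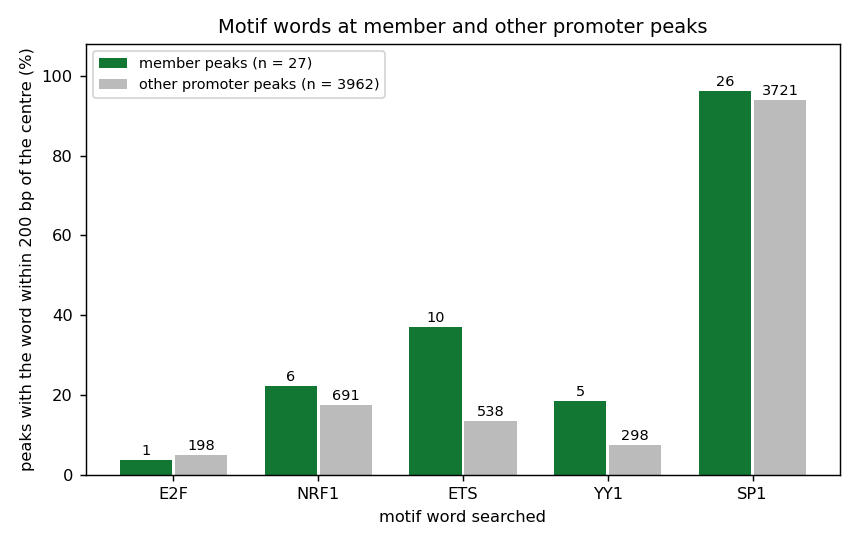
Percentage of peaks (vertical axis) with each motif word within 200 bp of the peak centre, for the 27 member peaks (green) and the 3962 other promoter peaks (grey), with the number of peaks printed on each bar. The ETS word was at 37.0% against 13.6% and the YY1 word at 18.5% against 7.52%, while the E2F word was at 3.70% against 5.0%.

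The words were also searched at the gene starts, with or without a peak, within 200 bp of the most upstream protein-coding start. There the ETS word was found for 12 of the 28 genes with a peak (42.9%) and 53 of the 149 without (35.6%), and for 17.0% of other protein-coding genes with a peak. In the same windows the YY1 word was found for 14.3% of member genes with a peak and 20.1% of those without, and the NRF1 word for 21.4% and 24.2%. These 3 words thus occurred in the gene group with and without a peak. The median GC content was 66.1% in member genes with a peak and 59.4% in those without, against 70.8% and 55.1% for other protein-coding genes with and without a peak. A window was taken as CpG rich at a GC content of at least 55% and an observed to expected CpG ratio of at least 0.6. This held for 25 of 28 member genes with a peak (89.3%) and 105 of 149 without (70.5%). Among other protein-coding genes it held for 88.1% with a peak and 35.3% without.

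E2F1 peaks were found at a minority of these genes, at a share whose interval includes that of other genes, unmatched for CpG content. The 28 genes with a peak were 15.8% of the 177 (exact Clopper-Pearson 95% interval 10.8% to 22.0%), while 4199 of 22048 other protein-coding genes had one (19.0%). At CpG-rich starts, 25 member genes had a peak and 105 had none, against 3696 and 6300 other genes. By these counts the share with a peak was lower among the members at such starts. The authors kept a peak when both replicates of serum or of 2i had it, so a gene without a peak may still carry weaker occupancy that was not detectable in this table.

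Of the 38 genes grouped by symbol as subunits of complex I, which oxidises NADH, 5 had a peak: Ndufa4, Ndufa11, Ndufa13, Ndufab1 and Ndufv2. None of the 8 Ndufs genes and none of the 4 Ndufaf assembly factors had one. Complex II, succinate dehydrogenase, had no peak at any of its structural genes Sdha, Sdhb, Sdhc and Sdhd. Its 2 peaks lay at the assembly factors Sdhaf1, which helps to insert iron-sulfur clusters, and Sdhaf2, which helps to attach FAD to the catalytic subunit. In complex III, 1 of 8 genes had a peak, Uqcrh, the hinge protein. In complex IV, cytochrome c oxidase, 4 of 19 genes had a peak, Cox4i1, Cox4nb, Cox5a and Cox6a1, where Cox4nb carries the prefix but encodes a protein of the endoplasmic reticulum and shares the peak of Cox4i1. Of 7 genes of complex IV assembly, Cox11, which delivers copper, had a peak. In complex V, 5 of 18 genes had a peak: Atp5a1 of the catalytic head, Atp5d of the central stalk, Atp5g3 of the membrane ring, and Atp5h and Atp5j of the peripheral stalk. Atp5b, which encodes the catalytic subunit, had none. Of the mitoribosome, 4 of 47 large subunit genes (8.51%) had a peak, Mrpl15, Mrpl33, Mrpl40 and Mrpl48. In the small subunit 6 of 30 genes (20.0%) had one, Mrps6, Mrps7, Mrps18b, Mrps24, Mrps26 and Mrps35. The intervals of these shares overlapped, at 2.37% to 20.4% for the large and 7.71% to 38.6% for the small subunit.

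Many of these peaks lay at promoters shared with another gene on the other strand. This held for 14 of 27 member peaks (51.9%) and for 336 of 3962 other promoter peaks (8.48%). Counted by gene, 15 of 28 member genes with a peak (53.6%) and 676 of 4199 other genes with a peak (16.1%) had such a partner. The count by gene is given because a peak with several starts has more chances to hold a member. The starts of such a pair were 35 to 841 bp apart. The partners included Hira, a histone H3.3 chaperone (Mrpl40), Phf14, a PHD finger protein (Ndufa4), Gabpa itself (Atp5j), Cpsf7 of pre-mRNA 3′ processing (Sdhaf2) and Rab6, a Golgi GTPase (Mrpl48). Mrps6 shared its peak with Slc5a3, a myo-inositol transporter gene that starts 2 bp away on the same strand.

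The peak centre was often nearer to the partner than to the member. In 10 of the 15 peaks with another gene, the centre was nearer to the start of that gene. At Atp5h the centre was 233 bp upstream of the Atp5h start and 13 bp downstream of the start of Kctd2. At Ndufa4 it was 380 bp upstream of Ndufa4 and 17 bp downstream of the Phf14 start, and at Mrpl40 it was 569 bp upstream of Mrpl40 and 66 bp downstream of the Hira start. Among all 27 members, 17 centres were within 150 bp of the member start and 7 were 300 bp or more upstream. The peak of Ndufa13 was the member with a centre that far upstream, at 554 bp, and no other start in the window. For the shared peaks, occupancy at the member and at its partner cannot be told apart in this table.

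**Figure D2:**
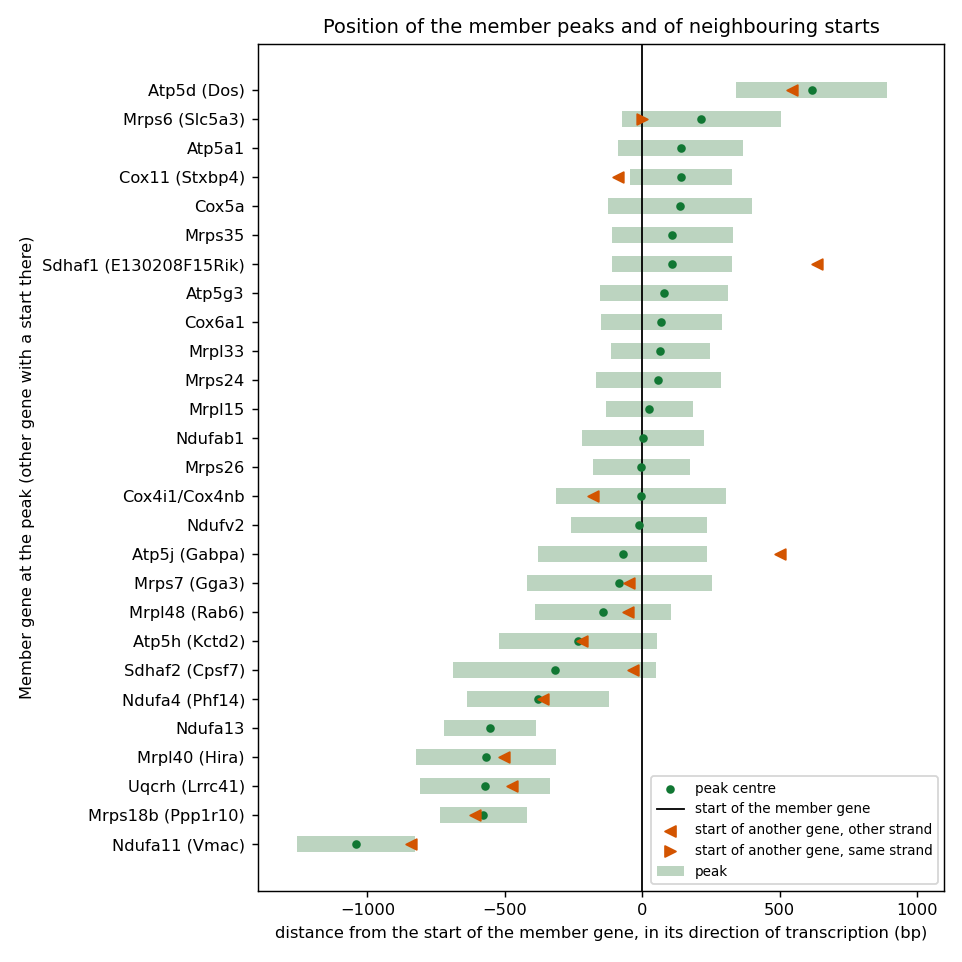
Position of the 27 member peaks along the horizontal axis, in bp from the start of the member gene in its direction of transcription (bars, peaks; green points, centres; orange triangles, starts of other genes named in parentheses). In 17 peaks the centre is within 150 bp of the member start, and in 7 it is 300 bp or more upstream, mostly close to the start of the other gene.

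The signal at the members was of the same order as at other promoters. The median over peaks of the mean normalized count was 69.2 for the members and 65.2 for other promoter peaks, a ratio of 1.06. By sample the ratio of medians was 1.06 and 1.04 in the serum replicates and 1.19 and 0.984 in the 2i replicates, so the replicates of 2i lay on both sides of 1. The members ranged from 15.3 to 147, while other promoter peaks reached 2572. When all promoter peaks were split into 4 classes of near equal size at mean signals of 38.2, 65.2 and 114, the classes from weakest to strongest held 7, 5, 9 and 6 members. The strongest member, Atp5h, ranked 666 of 3989. Median peak length was 469 bp for the members and 487 bp for the others, and median GC content 72.8% and 75.6%.

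**Figure D3:**
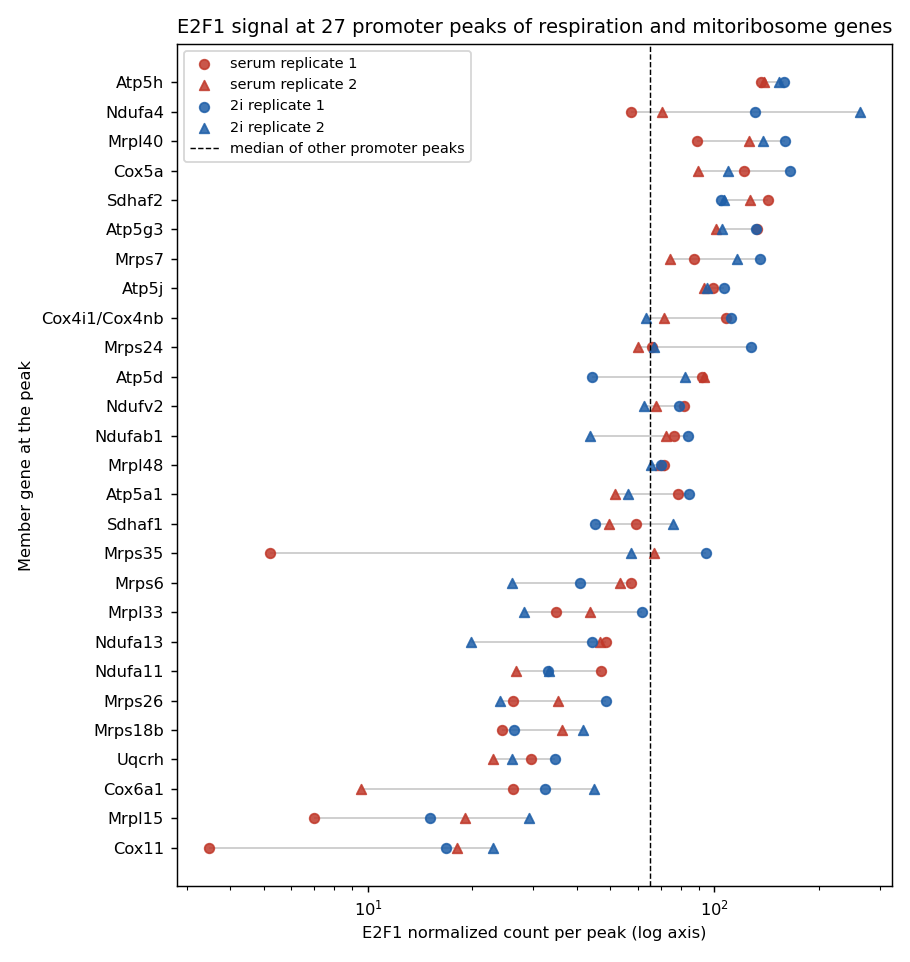
E2F1 normalized count (horizontal log axis) of each member peak in serum replicates (red) and 2i replicates (blue), with circles for replicate 1, triangles for replicate 2 and the median of other promoter peaks as a dashed line. Ndufa4 is higher in both 2i replicates than in both serum replicates, and serum replicate 1 is far below the other samples at Mrps35.

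The question of the design is whether E2F1 occupancy differs between serum and 2i ESCs. At most members it did not differ beyond the test's thresholds, and the 3 member peaks that were called, at Ndufa4, Mrps35 and Cox6a1, were all higher in 2i ESCs. Without 2i replicate 1, 1 of 3 member calls was higher in 2i and 2 were higher in serum. The call required a log2 fold change above 1 or below −1 and an unadjusted limma p under 0.05, from a fit on all 4523 peaks. A negative log2 fold change means higher in 2i. The 3 calls are 11.1% of the 27 members, where 10.3% of all peaks were called. Calls higher in 2i made up 5.48% of all peaks and 5.45% of other promoter peaks, where 216 of 371 called peaks were higher in 2i. After Benjamini-Hochberg adjustment over all peaks limma called 0 members, with a lowest adjusted p of 0.0562, and 66 peaks in all (1.46%). At an unadjusted p under 0.05 with no fold threshold, 4 members passed (14.8%), and 17.8% of all peaks. EdgeR and DESeq2 on the recovered reads each called 1 member after adjustment, Ndufa4, with adjusted p of 0.0435 and 0.0109, where they called 77 (1.70%) and 102 peaks (2.26%) in all. With 2 replicates per condition an exact two-sided permutation test of a single peak cannot go below a p of 0.333, and the calls draw on a variance estimated with the help of all peaks.

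Across the members the log2 fold changes leaned slightly to 2i. Their median was −0.12, against −0.05 over other promoter peaks and −0.03 over all peaks. It was negative in 18 of 27 members (66.7%) and in 53.6% of other promoter peaks. Without 2i replicate 1, 14 members were positive and 13 negative, with a median of 0.02, so the lean was lost without that sample. Without serum replicate 2, 12 were positive and 15 negative, with a median of −0.02. The lean was larger without 2i replicate 2, with 8 positive, 19 negative and a median of −0.34. Without serum replicate 1, 9 were positive and 18 negative, with a median of −0.14. Between single samples, the median difference over the members was −0.13 and 0.12 for serum replicate 1 against 2i replicates 1 and 2, and −0.30 and −0.13 for serum replicate 2. Serum and 2i values were fully separated in 10 members (37.0%), 6 of them lower and 4 higher in serum, where 49.3% of all peaks were separated in this way. Replicates over 2-fold apart were found at 4 members in serum (14.8%) and 4 in 2i (14.8%), against 9.89% and 6.54% of other promoter peaks.

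**Figure D4:**
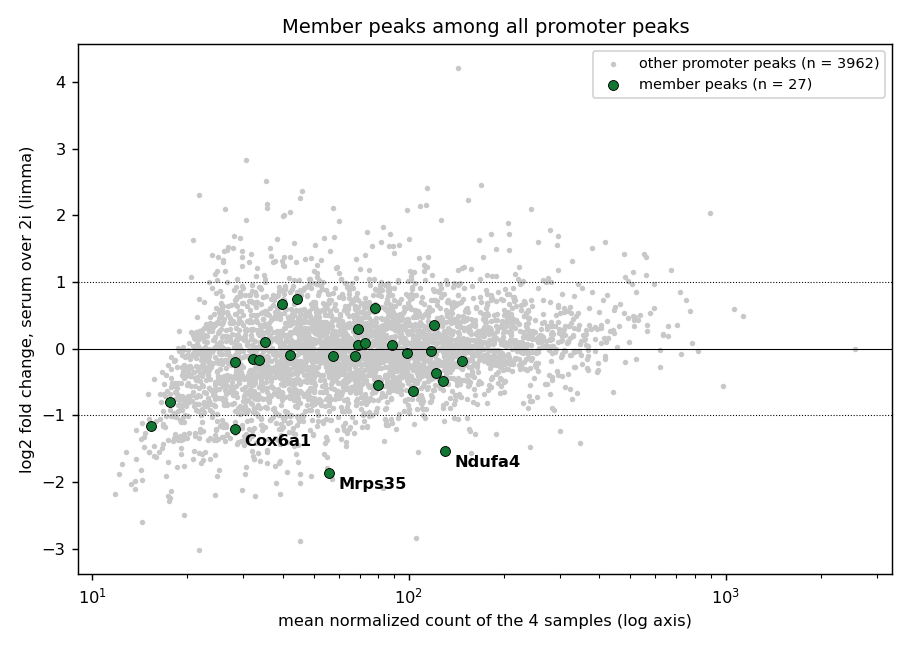
Log2 fold change of serum over 2i (vertical axis, limma) against mean normalized count (horizontal log axis) for 3962 other promoter peaks (grey) and the 27 member peaks (green), with dotted lines at the fold threshold. The members lie within the cloud of other promoter peaks, and Ndufa4, Mrps35 and Cox6a1 are below −1 and called, while Cox11 is also below −1 but not called.

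Ndufa4 carried the largest difference relative to its error. It was named as a complex I subunit and has since been assigned to complex IV, but is kept here in the group of its symbol. Its peak (chr6:11857568-11858085) had normalized counts of 57.5 and 70.5 in serum and 131 and 263 in 2i, from 33, 74, 234 and 252 reads. Both 2i values were above both serum values, although the 2i replicates were 2.01-fold apart. The means were 64.0 ± 9.22 in serum and 197 ± 93.2 in 2i (SD over 2 replicates). In limma the log2 fold change was −1.53 with a standard error of 0.34, an unadjusted p of 0.000832 and an adjusted p of 0.0562. In the class of promoter peaks with the highest signal, to which this peak belongs, 6.15% of other peaks were called in either direction. It remained called under each of the 15 other settings tried, with log2 fold changes from −2.03 to −1.03 and adjusted p from 0.000143 to 0.262. As shown by the positions, this peak is centred at the start of Phf14.

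The other members grouped by symbol with complex I showed no call. Ndufa13, also known as GRIM-19, had 48.8 and 46.7 in serum and 44.2 and 19.8 in 2i (chr8:72426842-72427180). Both 2i values were below both serum values, but the replicates of 2i were over 2-fold apart, and the limma log2 fold change was 0.67 ± 0.44 (SE) with an adjusted p of 0.457. Ndufv2, Ndufa11 and Ndufab1 (named after their values were seen, as the rest of the complex) had log2 fold changes of 0.08, 0.09 and 0.29.

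The complex II peaks lay at assembly factors and differed little. Sdhaf2 (chr19:10599648-10600386) had 143 and 127 in serum and 104 and 106 in 2i. The serum values were both higher, with a log2 fold change of 0.35 ± 0.25 (SE) and an adjusted limma p of 0.503. The single complex III peak, Uqcrh (chr4:115748012-115748484), was weak, at 29.6 and 22.9 in serum and 34.7 and 26.1 in 2i. Its samples overlapped, and its log2 fold change was −0.20 ± 0.43 (SE).

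Among the Cox genes grouped as complex IV, Cox6a1, which encodes the isoform of subunit VIa found outside muscle, had the call. Its peak (chr5:115798633-115799073) had 26.1 and 9.53 in serum and 32.5 and 44.9 in 2i, from only 15, 10, 58 and 43 reads. All 2i values were higher, while the serum replicates were 2.74-fold apart. The limma log2 fold change was −1.21 ± 0.53 (SE), with an unadjusted p of 0.043 and an adjusted p of 0.263. The call was lost in 6 of 14 other settings, and without serum replicate 2 the log2 fold change was −0.53. It was also lost without 2i replicate 1, at −1.44, and without 2i replicate 2, at −0.99. In the weakest class of promoter peaks, which holds this peak, 15.8% of other peaks were called.

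Cox5a, a nuclear subunit of the same enzyme, had the strongest peak of these Cox genes (chr9:57368914-57369438), at 122 and 89.6 in serum and 165 and 110 in 2i. These overlapped, with a log2 fold change of −0.36 ± 0.30 (SE). Cox11 had the weakest member peak (chr11:90499442-90499813), at 3.48 and 18.1 in serum and 16.8 and 22.9 in 2i. The low value of serum replicate 1 came from 2 reads. The log2 fold change was −1.16 ± 0.70 (SE), past the fold threshold, with an adjusted limma p of 0.415. It was −0.11 without serum replicate 1, and without serum replicate 2 it was −2.20 and called.

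The ATP synthase peaks were the strongest group by median signal, at 98.5, and none was called. Atp5h (chr11:115281221-115281798) had 136 and 139 in serum and 158 and 153 in 2i. Its replicates lay close together and the 2i values were both higher, but the log2 fold change was −0.18 ± 0.24 (SE) with an adjusted limma p of 0.757. With each chromosome centred on its own median it was 0.06, so its sign depended on that setting. Atp5d (chr10:79601719-79602270) had 92.3 and 93.4 in serum and 44.2 and 82.4 in 2i. Its serum values were both higher, with a log2 fold change of 0.61 ± 0.34 (SE) and an adjusted p of 0.368. Without 2i replicate 2 its log2 fold change was 1.05 and it was called, while without 2i replicate 1 the log2 fold change was 0.17. Atp5a1, Atp5g3 and Atp5j, named after their values were seen, were at −0.12, −0.03 and −0.06.

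Among the large mitoribosomal subunit genes the median log2 fold change was −0.29 over 4 peaks and none was called. Mrpl40 (chr16:18877176-18877683), which carries the E2F word and lies at Hira, had 88.9 and 126 in serum and 160 and 138 in 2i. The 2i values were both higher, with a log2 fold change of −0.49 ± 0.27 (SE) and an adjusted limma p of 0.377.

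The small subunit genes had a median of −0.36 over 6 peaks, with a range from −1.86 to 0.74. Mrps35 (chr6:146991175-146991615) had 5.23 and 66.7 in serum and 94.6 and 57.4 in 2i, from 3, 70, 169 and 55 reads. The serum replicates were 12.8-fold apart, and the second lay between the 2i values. In limma the log2 fold change was −1.86 ± 0.83 (SE), with an unadjusted p of 0.0466 and an adjusted p of 0.27. Without serum replicate 1 it was −0.14, so the call rested on the 3 reads of that sample. It was also lost without either 2i replicate, at −1.51 and −2.22. Over all 15 other settings it was lost in 8, among them edgeR at −0.96 and DESeq2 at −1.07.

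Mrps7 (chr11:115464818-115465494) had 87.1 and 74.3 in serum and 135 and 116 in 2i. Its replicates lay close together and did not overlap between conditions. The log2 fold change was −0.63 ± 0.27 (SE), short of the fold threshold, with an unadjusted limma p of 0.0387 and an adjusted p of 0.251. Mrps6 went the other way (chr16:92058495-92059074), with 57.5 and 53.4 in serum and 40.9 and 26.1 in 2i. Its serum values were both higher, with a log2 fold change of 0.74 ± 0.38 (SE), the highest among the members, and an adjusted p of 0.33. Without 2i replicate 1 the peaks of Mrps6 and Ndufa13 were called, at 1.06 and 1.23. Without 2i replicate 2 their log2 fold changes were 0.43 and 0.11.

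**Figure D5:**
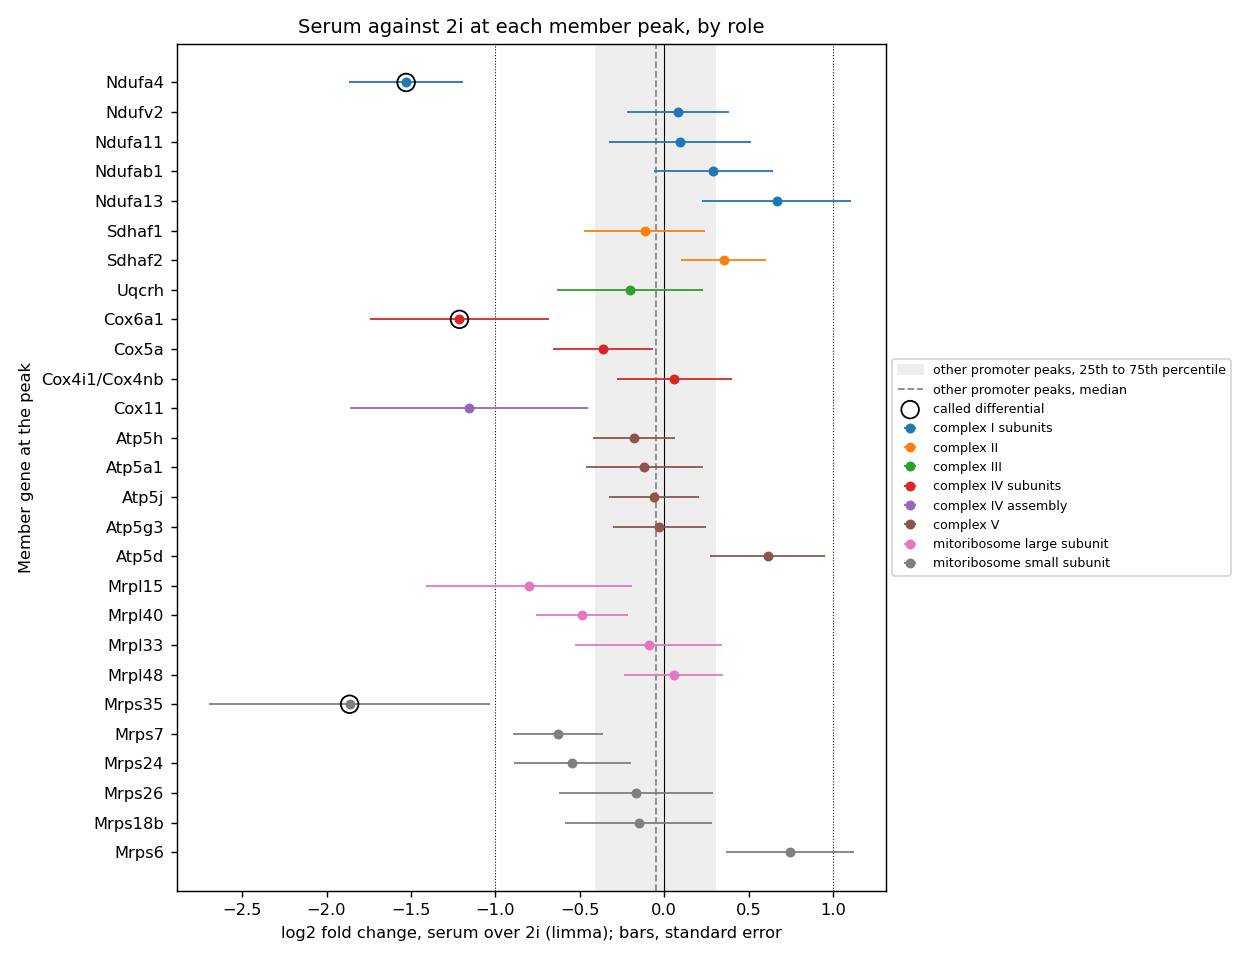
Limma log2 fold change of serum over 2i at each member peak (points, horizontal axis; bars, standard error), grouped by complex in colour, with called peaks ringed, dotted lines at the fold threshold and the interquartile range of other promoter peaks in grey. The ringed peaks are Ndufa4, Cox6a1 and Mrps35, and most other members overlap the grey band from −0.40 to 0.30.

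Of the 3 called members, Ndufa4 and Mrps35 lie on chromosome 6, where the 238 peaks had a median log2 fold change of −0.38 and 27 were called higher in 2i (11.3%). With log2 values centred per chromosome Ndufa4 was at −1.18 and remained called, while Mrps35 was at −1.52 and was no longer called. The cause of the shift of this chromosome was not tested. Chromosomes 11 and 16, with 4 and 3 members, had medians of −0.24 and −0.26. On chromosome 5, which holds Cox6a1, the median was 0.02. Shared and unshared promoters had like medians, with a log2 fold change of −0.13 over 14 members with a partner on the other strand and −0.12 over the 13 without. The median of the mean signal was 83.4 and 56.0 in these groups.

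Other mitochondrial genes were set beside the members from a list of 82 genes, of which 21 had a promoter peak (25.6%). By group, a peak was found at 6 of 9 nuclear regulators of mitochondrial genes, 2 of 16 genes of the tricarboxylic acid cycle and pyruvate dehydrogenase, and 6 of 25 of protein import and folding. It was also found at 2 of 9 genes of mitochondrial DNA transcription and replication, 2 of 11 translation factors and 3 of 12 electron carrier and assembly genes. The nuclear regulators with a peak were Nrf1, Gabpa, Gabpb1, Pprc1, Esrra and Yy1, which include NRF1, GABPA and YY1 among the factors whose words were searched. The list has 22 promoter peaks, 1 of which is the member peak that Atp5j shares with Gabpa. None of the 22 was called, with a lowest adjusted limma p of 0.233 and 2 peaks at an unadjusted p under 0.05. Without the shared peak, the median log2 fold change of the other 21 was 0.08, with 11 positive and 10 negative. Without serum replicate 2, or without 2i replicate 2, 1 of them was called.

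The genes of cytosolic ribosomal proteins had a peak in 33 of 134 cases (24.6%). Their median log2 fold change was 0.34, positive in 24 and negative in 9, and 4 were called, 3 of them higher in serum. Proteasome subunits had a peak in 2 of 40 genes (5.0%), at a median log2 fold change of −1.10, and 1 was called. Without 2i replicate 1 no peak of these ribosomal and proteasome genes was called.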

How the data were processed

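E2F1 ChIP-seq was measured in 2 serum and 2 2i ESC samples. The authors mapped the read pairs with BWA (mm9), dropped picard duplicates and regions of the ENCODE blacklist, called peaks with MACS2 per sample, intersected the replicates, merged serum and 2i peaks and counted reads with bedtools (versions are not given in the sources used here). The authors deposited normalized counts, a signal per peak and sample in scaled reads. Of the 18092 values, 99.95% were whole multiples of 1 read within 0.05 reads, and the rest were 9 serum values deposited as exactly 2, taken as 0 reads in tests on reads. Whether peak starts count from 0 or 1 is not stated.

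The main test was limma 3.58.1 (R 4.3.3) on log2(normalized count + 1), over all 4 samples and 4523 peaks, two-sided, with eBayes and a variance trend. Fold changes are differences of mean log2(normalized count + 1). The added 1 shrinks them at weak peaks, while a single low sample weighs more than in a ratio of means. The thresholds follow the study's methods, which do not state an adjustment, so Benjamini-Hochberg adjusted values are given beside them. Each limma p sets the difference between conditions against a variance estimated with the help of all peaks, and covers only these samples. Peaks were placed and sequences read in Python 3.11.15 with pysam 0.24.0 on NCBIM37 with GENCODE M1, and 14 peaks on unplaced contigs had no reference sequence here. The fit was tested on simulated data. Intervals of shares cover counting error only.

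Member peaks with values in all samples were every called member, the 3 strongest, the strongest of each role and the 4 largest log2 fold changes in each direction. The members and lists were chosen with earlier results of these data known. Alternatives were pseudocounts of 0.1 and 8, a minimum mean of 50, equal sample totals, median-of-ratios scaling, loess normalization, no trend, a replicate block, each sample left out, edgeR 4.0.16 and DESeq2 1.42.0 on recovered reads, and other windows. Centring per chromosome was added after seeing the data.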

Additional observations from a re-analysis of the deposited data

How the results depend on the processing

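The 3 calls among the members became 1 with a minimum mean normalized count of 50, which left 17 members to test, and 1 with DESeq2 on the recovered reads, in each case Ndufa4. With 1 sample left out they ranged from 2 to 4, where the lone sample is assumed to vary like the others, and without 2i replicate 1 only 1 of 3 calls was higher in 2i. Over all peaks the 466 calls became 188 at the minimum of 50, 399 with DESeq2 and 378 to 674 with 1 sample left out. Rescaling to the same total moved the median of all peaks from −0.03 to −0.12 and gave 6 positive and 21 negative members, and the share of calls higher in serum went from 46.8% to 36.3%. It was 58.3% with cyclic loess and 64.4% at the minimum of 50. The median log2 fold change of members minus that of other promoter peaks, −0.07, ranged from −0.295 to 0.0613 with 1 sample left out. The ratio of median signal, 1.06, was 0.903 at the minimum of 50, and the pseudocount does not enter it. Within 100 bp of the centre the E2F word was found at 0 members, the ETS word at 11.1% and the SP1 word at 74.1%. The NRF1 word was there at 11.1% of members and 9.14% of other promoter peaks. Calls among related mitochondrial genes were 0 to 1 with 1 sample left out, and those of ribosomal and proteasome genes, 5, became 3 at a pseudocount of 8 and 1 at the minimum of 50, with 0 to 6 when 1 sample was left out. Atp5h turned from −0.18 to 0.0647 when centred per chromosome.

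Samples with the same replicate number deviated together only weakly, with a correlation of 0.05 over all peaks. The labels do not say whether the numbers pair the samples, and this correlation cannot settle it. With a replicate block in limma 3 members and 504 peaks were called. After adjustment 2 members (Ndufa4 at an adjusted p of 0.000143 and Mrps35 at 0.00425) and 271 peaks were called, where limma without the block gave 0 and 66. With 4 samples the block leaves little of a peak's own spread, so these p-values lean on the variance borrowed from all peaks. At Mrps35 the serum replicates rose from 5.23 to 66.7 while the 2i replicates fell from 94.6 to 57.4. A shared replicate effect does not describe that spread. The weakest members rest on few reads, down to 2 in a sample, and the causes of these shifts were not tested.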
